A study of Medicago truncatula with 16 samples.

Results

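MtrunA17_Chr4g0040391, written MtrunA17Chr4g0040391 in the study's supplementary tables, is the Medicago truncatula orthologue of the Arabidopsis gene SOMNUS (SOM), and it is 1 of the 44473 genes measured. It was taken by its identifier, which places it on chromosome 4. The annotation in the study's supplementary tables calls it a putative transcription factor of the C3H family. The study had picked it out from radicle data, as a gene with a higher transcript level in PEG-treated 1 mm radicles and with chromatin that was more open there. Its radicle values are therefore given below as a description without a test, and so are the differences between tissues, which use the same radicle libraries. Its cotyledon values played no part in that choice and were tested.

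In Arabidopsis, SOM encodes a CCCH-type zinc finger protein that holds back seed germination in the dark. There the light-labile factor PIF1 binds its promoter together with ABI3, and ABI3, ABI5 and DELLA proteins act on it at high temperature. It acts indirectly on genes of abscisic acid (ABA) and gibberellin (GA) metabolism, and som mutant seeds contain less ABA and more GA than wild type. Desiccation tolerance (DT), the ability to survive drying, is present in mature seeds and is lost as the radicle grows out, first in the radicle and later in the cotyledons. Within a short window an osmotic treatment can bring it back.

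The transcripts of radicles and cotyledons of germinating seeds of the cultivar A17 were measured by RNA-Seq in 16 libraries, which form 8 groups of 2 biological replicates. Seeds were taken when the radicle was 1 mm or 5 mm long. R1P, R5P, C1P and C5P are the radicles (R) and cotyledons (C) of 1 mm and 5 mm seeds kept in polyethylene glycol (PEG8000) at -1.7 MPa for 3 days at 10 °C in the dark. R1, R5, C1 and C5 are the same tissues of the same stages without PEG. All groups carry the A17 genotype with no transgene named. There was no group kept in the cold and dark without PEG, so the osmotic stress, the cold, the darkness and the added days cannot be told apart, and "PEG" below stands for all of them. The sources describe the seeds both as desiccated and as freshly harvested, and give either about 100 or 50 seeds per sample.

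Library totals lay between 22012976 and 23257652 estimated counts. Replicates differed by more than 2-fold in 4.85% to 15.6% of genes in 7 groups and in 19.3% in C1P, where their correlation over genes was also lowest (Pearson's r = 0.952). C1P values rest on that pair, and those of the SOM orthologue are given below without one or the other replicate. Chloroplast-encoded genes took 0.313% to 4.06% of the counts in cotyledon libraries, against 0.0460% to 0.265% in radicle libraries, with no overlap. The protein-coding markers could be matched to annotated genes for 9 cotyledon-type genes and 1 radicle-type gene only. The annotations came from the study's lists, which hold genes that differed between R1P and R1 or in chromatin accessibility. The 9 summed to between 102 and 1369 CPM (read counts scaled by library size and TMM factor) in cotyledons and to between 33.1 and 2115 CPM in radicles. Over all 16 libraries their sum thus did not separate the tissues. The upper end in radicles was mostly 1 gene, MtrunA17Chr1g0185841, at 1823 CPM in R1P replicate 1 against 3.90 CPM in R1 replicate 1. The sum therefore mixes tissue with PEG, and it was not compared among untreated libraries alone. The single radicle-type gene, a Casparian strip gene, was at 1.40 to 66.7 CPM in cotyledons and 0.414 to 15.4 CPM in radicles, which is not the direction its name would give. The radicle label could therefore not be checked by a marker. In bulk tissue, fewer cells that express a gene and less RNA per cell cannot be told apart.

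The SOM orthologue was abundant in all 8 PEG-treated libraries and scarce in all 8 untreated ones. In 1 mm radicles it had 9355 and 8639 counts after PEG (484 and 433 CPM), against 130 and 149 counts without PEG (5.33 and 5.72 CPM). In 5 mm radicles it had 1582 and 2111 counts after PEG (75.7 and 96.0 CPM), against 170 and 120 counts without PEG (6.78 and 4.64 CPM). No PEG-treated radicle library came near an untreated one. The cotyledons of 1 mm seeds had 7276 and 2903 counts after PEG (379 and 186 CPM), against 145 and 153 counts without PEG (5.40 and 5.68 CPM). The cotyledons of 5 mm seeds had 5012 and 4391 counts after PEG (212 and 200.02 CPM), against 21 and 37 counts without PEG (0.885 and 1.33 CPM). The C5 libraries were the lowest of the 16, and their 95% Poisson intervals, which cover counting error only, ran from 0.548 to 1.35 CPM and from 0.939 to 1.84 CPM.

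**Figure D1:**
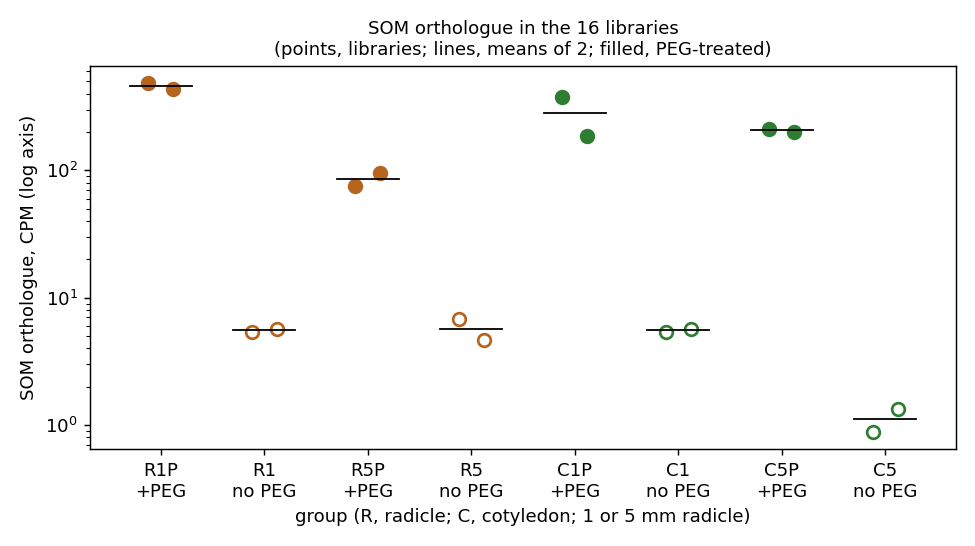
CPM of the SOM orthologue (log axis) in each of the 16 libraries by group, with R for radicles, C for cotyledons, 1 or 5 for the radicle length in mm and filled points for PEG. Points are libraries and lines are means of 2. All PEG-treated libraries lie between 75.7 and 484 CPM, and all untreated ones between 0.885 and 6.78 CPM.

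Ordered by mean level, R1P came first at 459 ± 36.4 CPM, followed by C1P at 282 ± 136, C5P at 206 ± 8.55 and R5P at 85.9 ± 14.3 (SD, n = 2 each). Far below these stood R5 at 5.71 ± 1.51 CPM, C1 at 5.54 ± 0.198 and R1 at 5.53 ± 0.278, and C5 was last at 1.11 ± 0.317 (SD, n = 2 each). Neighbours in this order were taken to differ when their libraries did not overlap and the gap of their log2 means exceeded the pooled SD of 0.336. By that measure C1P did not differ from C5P, R5 not from C1 and C1 not from R1. The gaps between R1P and C1P, C5P and R5P, R5P and R5, and R1 and C5 exceeded it. The first of these turned on 1 library. C1P alone had a log2 SD of 0.724, and C1P against R1P was -0.28 without C1P replicate 2. The 2 replicates of C1P differed 2.03-fold, more than those of any other group.

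The cotyledon comparisons address whether the gene responded to PEG outside the tissue in which it had been picked. The SOM orthologue rose 51.0-fold in C1P, as the ratio of mean CPM (32.8 to 70.1 over the pairs of libraries), and 186-fold in C5P (150 to 240). For C1P against C1 the log2 fold change was 5.64 (SE 0.41, adjusted p = 7.9e-05, edgeR quasi-likelihood test), and it ranked 219 from the top of 23060 genes tested. For C5P against C5 it was 7.45 (SE 0.46, adjusted p = 3.9e-05, same test), rank 102. A gene was called when its adjusted p was under 0.05 and its log2 fold change over 1 in size. By that rule 13.8% of genes were called higher in C1P and 9.02% in C5P, against 14.9% and 12.1% called lower. Without C1P replicate 1 the value for C1P against C1 was 5.05, without C1P replicate 2 it was 6.06, and both stayed called.

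The same contrast in radicles was part of how the gene was chosen. The SOM orthologue was 83.0-fold higher in R1P than in R1 (75.6 to 90.8 over pairs), a log2 fold change of 6.38 (SE 0.23). In R5P it was 15.03-fold higher than in R5 (11.2 to 20.7), a log2 fold change of 4.02 (SE 0.21). Among all 23793 genes tested in radicles, 15.2% were called higher in R1P and 18.9% in R5P.

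**Figure D2:**
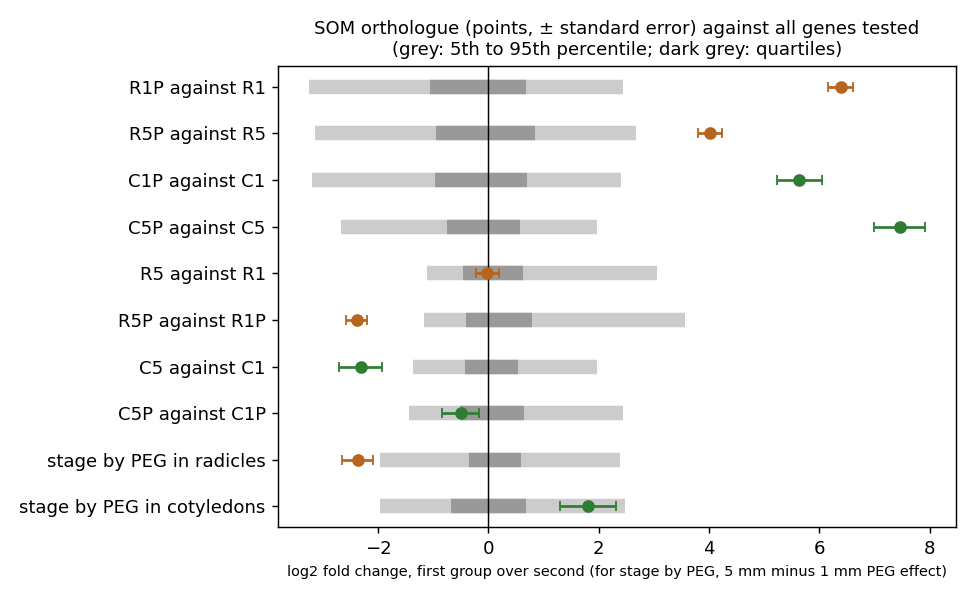
Log2 fold change of the SOM orthologue with its standard error in the 8 comparisons and the 2 stage by PEG differences within a tissue, brown for radicles and green for cotyledons. Grey bars span the 5th to 95th percentile and dark grey bars the quartiles of all genes tested. The 4 PEG comparisons (6.38, 4.02, 5.64 and 7.45) lie beyond the 95th percentile, and the stage by PEG values have opposite signs (-2.37 in radicles and 1.81 in cotyledons). The choice of the gene favoured the radicle sign, and the cotyledon value was not called.

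Without PEG, the SOM orthologue fell in cotyledons between the 1 mm and the 5 mm stage. Its level was 4.99-fold lower in C5 than in C1 (4.05 to 6.41 over pairs), with a log2 fold change of -2.31 (SE 0.39, adjusted p = 0.0099, edgeR), in a comparison in which 2.92% of genes were called lower. The call was lost when some libraries were left out. Without C5 replicate 1, C1 replicate 1 or C1 replicate 2 the adjusted p of the edgeR test was 0.063 to 0.071, with log2 fold changes of -2.04, -2.34 and -2.27. Without C5 replicate 2 it was -2.63 and still called (adjusted p = 0.033, edgeR). In untreated radicles no such difference was seen. R5 and R1 overlapped, and the log2 fold change was -0.02 (SE 0.21), where 17.6% of genes were called in either direction.

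After PEG, the radicle level was 5.34-fold lower in R5P than in R1P (4.51 to 6.39 over pairs), a log2 fold change of -2.39 (SE 0.19), and 3.82% of genes were called lower in that contrast. The study's clustering used both groups, so a lower R5P level was favoured by the choice of the gene. In cotyledons, C5P and C1P overlapped. The log2 fold change of C5P against C1P was -0.49 (SE 0.33, 95% interval -1.26 to 0.27, adjusted p = 0.34, edgeR), and 6.21% of genes were called in either direction. This value turned on 1 library, being 0.10 without C1P replicate 1 and -0.91 without C1P replicate 2. The interval thus holds a decrease of over 2-fold as well as a small increase.

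The stage by PEG contrast asks whether the PEG response changed between the 1 mm and the 5 mm stage, and it is given as the 5 mm response minus the 1 mm response. In cotyledons it was 1.81 on the log2 scale (SE 0.51, 95% interval 0.64 to 2.98), the larger response being that of 5 mm seeds. The unadjusted p was 0.0071 and the adjusted p 0.12 by the edgeR test, so it was not called, in a contrast in which 1.22% of genes were called. Its adjusted p was 0.031 with no low-count filter (edgeR), 0.026 with all 16 libraries in 1 edgeR model and 0.013 with DESeq2. With replicate number added to the edgeR model it was 0.21. The value turned on C1P, being 2.41 without C1P replicate 1 and 1.40 without C1P replicate 2. In radicles the difference was -2.37 (SE 0.28), with 3.53% of genes called lower, the larger response being that of 1 mm seeds. The choice of the gene favoured that direction. In cotyledons the untreated level was lower at 5 mm while the PEG-treated levels overlapped, and in radicles the PEG-treated level was lower at 5 mm while the untreated levels overlapped.

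Cotyledons were also set against radicles. Without PEG at 1 mm the tissues overlapped (5.54 CPM in C1 and 5.53 CPM in R1), with a log2 fold change of 0.00 (SE 0.31), although 45.4% of all 25524 genes were called in that contrast. Without PEG at 5 mm the level was 5.15-fold lower in C5 than in R5 (3.48 to 7.66 over pairs), a log2 fold change of -2.35 (SE 0.35), where 23.7% of genes were called lower. After PEG at 1 mm it was 1.62-fold lower in C1P than in R1P (1.14 to 2.60), or -0.70 (SE 0.28), where 17.8% were called lower. After PEG at 5 mm it was 2.40-fold higher in C5P than in R5P (2.08 to 2.80), or 1.26 (SE 0.29), where 19.9% were called higher. The C1P value moved to -1.31 without C1P replicate 1 and to -0.28 without C1P replicate 2.

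The PEG response in cotyledons minus that in radicles was -0.70 at 1 mm (SE 0.42), where 4.08% of genes were called lower, and 3.61 at 5 mm (SE 0.45), where 11.5% were called higher. The fitted log2 response of the SOM orthologue was larger in 5 mm seeds in cotyledons (7.45), where the stage difference was not called. In radicles it was larger in 1 mm seeds (6.38), a description without a test. The gap between these 2 tissue differences was 4.31 (SE 0.61), a contrast added after the values had been seen and given without a test. Its radicle part was favoured by how the gene was chosen.

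The values also depend on how libraries were scaled. With library totals in place of TMM factors, the middle gene of those tested had a log2 fold change of -0.66 rather than -0.08 for C1P against C1 and of -0.50 rather than -0.12 for R1P against R1. The SOM orthologue moved by a similar amount in C1P, and each of its 4 PEG comparisons kept its direction. The share of called genes that were higher was then 19.9% rather than 48% for C1P against C1, 25.3% rather than 42.5% for R1P against R1, and 31.6% rather than 48% for R5P against R5. For C5P against C1P it was 90.2% rather than 64.5%, for stage by PEG in cotyledons 76.3% rather than 45.7%, and for tissue by PEG at 1 mm 29.6% rather than 50.5%. On library totals the SOM orthologue had log2 fold changes of 5.11 in C1P, 7.35 in C5P, 6.01 in R1P and 3.67 in R5P, each against its untreated group. C5P against C1P was -0.12 on that scale and stage by PEG in cotyledons 2.24 (adjusted p = 0.099, edgeR).

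Genes with the most similar levels were found by Pearson's r of log2 CPM over the 16 libraries, which share 4 PEG-treated and 4 untreated groups, so that any gene with a large PEG response in both tissues scores high. Of 25523 other genes, 81 had r over 0.95. The 10 highest had r between 0.976 and 0.986, and the next gene was also at 0.976. All 10 stood in the study's own list of genes higher in R1P than in R1, which a high r with a gene raised there makes likely beforehand. Of all genes tested in radicles, 15.2% were called higher in R1P. MtrunA17Chr7g0272941, a putative protein, was first (r = 0.986), followed by the CBS domain protein MtrunA17Chr5g0416121 (r = 0.984) and the putative protein MtrunA17Chr4g0014721 (r = 0.981). A putative phosphotransferase (MtrunA17Chr7g0216471) and the putative protein MtrunA17Chr4g0014741 came next at 0.978. The glycerol 3-phosphate transporter MtrunA17Chr4g0055641 (0.978), the ADP-ribosyltransferase PARP3 (MtrunA17Chr4g0026531, 0.977) and the putative protein MtrunA17Chr1g0199041 (0.976) were also among them. The remaining 2 were MtrunA17Chr2g0324781, another C3H family gene (0.976), and MtrunA17Chr1g0196841, an oleosin (0.976), one of the proteins that coat seed oil bodies. For 4 of the 10 the estimated counts were not whole in any library, as happens where reads are divided among transcripts. In every library the fractions of MtrunA17Chr4g0014721 and MtrunA17Chr4g0014741 added up to a whole number, as with 15822.758 and 12726.242 counts in C1P replicate 1. These 2 entries may share reads with each other, so they may not be separate similar genes.

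The ratios between stages are given for the SOM orthologue beside these 10 genes without a test. Its R5P level was 0.187 of its R1P level, against 0.197 for the oleosin and 0.452 to 0.810 for the other 9. In cotyledons its C5P level was 0.730 of its C1P level, inside the range of the 10 (0.181 to 1.30). Its C5 level was 0.200 of C1, also inside their range (0.0779 to 0.667). The other C3H family gene, MtrunA17Chr2g0324781, averaged 1759 CPM in R1P against 15.03 in R1 and 1333 in R5P against 13.7 in R5. In cotyledons it averaged 1876 CPM in C1P against 40.5 in C1 and 1574 in C5P against 3.15 in C5.

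**Figure D3:**
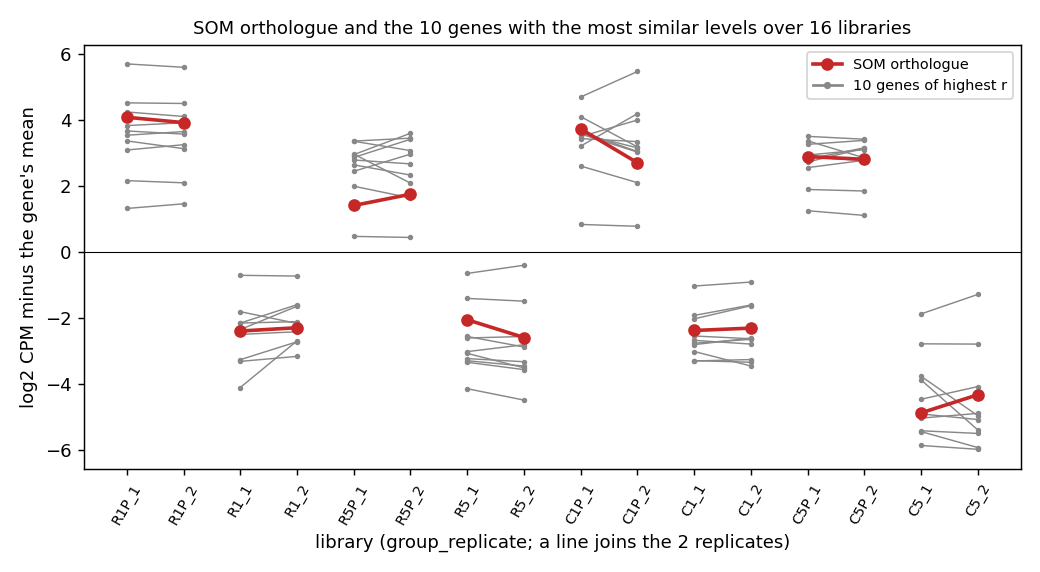
Log2 CPM minus each gene's own mean over the 16 libraries, for the SOM orthologue (red) and the 10 genes of highest r (grey). Lines join the 2 replicates of a group. All 11 genes lie above their mean in the PEG-treated libraries and below it in the untreated ones, and the SOM orthologue is near the lower edge of the grey lines in R5P.

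Genes related to the Arabidopsis regulators of SOM, with MtABI4 beside them as another gene of seed ABA signalling, were followed in the same libraries. They are MtABI3, MtABI4 and MtABI5, transcription factors of ABA signalling in seeds, and MtDELLA3, a repressor of GA responses. All 4 come from the study's list of genes higher in R1P than in R1, so their rise in R1P was fixed by choice. In cotyledons 2 of the 4 rose in C1P and 2 in C5P by the edgeR test, and 0 fell, where 13.8% of all genes rose and 14.9% fell in C1P, and 9.02% rose and 12.1% fell in C5P. At an unadjusted p under 0.05 there were also 0 lower in either comparison, and 0 with DESeq2, which called 3 higher in C5P. Their median log2 fold change was 1.37 in C1P and 3.39 in C5P, beside -0.08 and -0.05 over all genes tested.

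MtABI3, a B3-domain factor, had 319 and 197 CPM in C1P against 85.1 and 88.8 CPM in C1, and 103 and 101 CPM in C5P against 5.61 and 3.50 CPM in C5. PEG-treated and untreated cotyledons did not overlap at either stage. Its log2 fold change was 1.54 at 1 mm (adjusted p = 0.0054, edgeR) and 4.43 at 5 mm (adjusted p = 8.6e-05). The 1 mm call was lost on library totals, where the value was 0.99, and without either C1 replicate (adjusted p = 0.052 and 0.055, edgeR). Between the untreated stages MtABI3 fell by 4.28 on the log2 scale in C5 (adjusted p = 0.00067, edgeR), as the SOM orthologue fell by 2.31. In radicles MtABI3 averaged 83.5 CPM in R1P against 22.5 in R1 and 15.2 in R5P against 0.689 in R5. There its untreated level was lower at 5 mm (log2 fold change -5.09, SE 0.20), whereas that of the SOM orthologue differed by -0.02.

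MtABI5, a bZIP factor, had 276 and 263 CPM in C1P against 24.9 and 22.4 CPM in C1, and 228 and 164 CPM in C5P against 4.38 and 8.11 CPM in C5. It rose at both stages without overlap, by 3.48 (adjusted p = 3e-04, edgeR) and 4.89 (adjusted p = 9.6e-05) on the log2 scale. In radicles its averages were 161 CPM in R1P against 54.7 in R1 and 98.2 in R5P against 31.2 in R5. Those PEG differences, 1.57 (SE 0.18) and 1.76 (SE 0.18), stand beside 6.38 and 4.02 for the SOM orthologue.

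MtABI4, an AP2-type factor, had log2 fold changes of -0.39 in C1P (adjusted p = 0.22, edgeR) and 0.84 in C5P (adjusted p = 0.03, under the fold required for a call). Its cotyledon mean was 56.8 CPM in C1P against 72.6 in C1, where the SOM orthologue had 282 against 5.54. MtDELLA3 was scarce in cotyledons, at 1.66 CPM in C1P against 0.706 in C1 and 2.54 in C5P against 0.454 in C5. Its log2 fold changes of 1.197 and 2.35 were not called (adjusted p = 0.32 and 0.093, edgeR), and its C5 libraries held 1 and 24 counts. At 5 mm the value was 1.55 without C5 replicate 1 (adjusted p = 0.13, edgeR) and 5.74, and called, without C5 replicate 2. It was also called with DESeq2 (2.43), with no low-count filter (2.45) and with all 16 libraries in the model (2.42). In radicles MtABI4 and MtDELLA3 had log2 fold changes of 1.502 and 2.88 in R1P, where both were higher by choice, and of 3.31 and 1.45 in R5P.

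**Figure D4:**
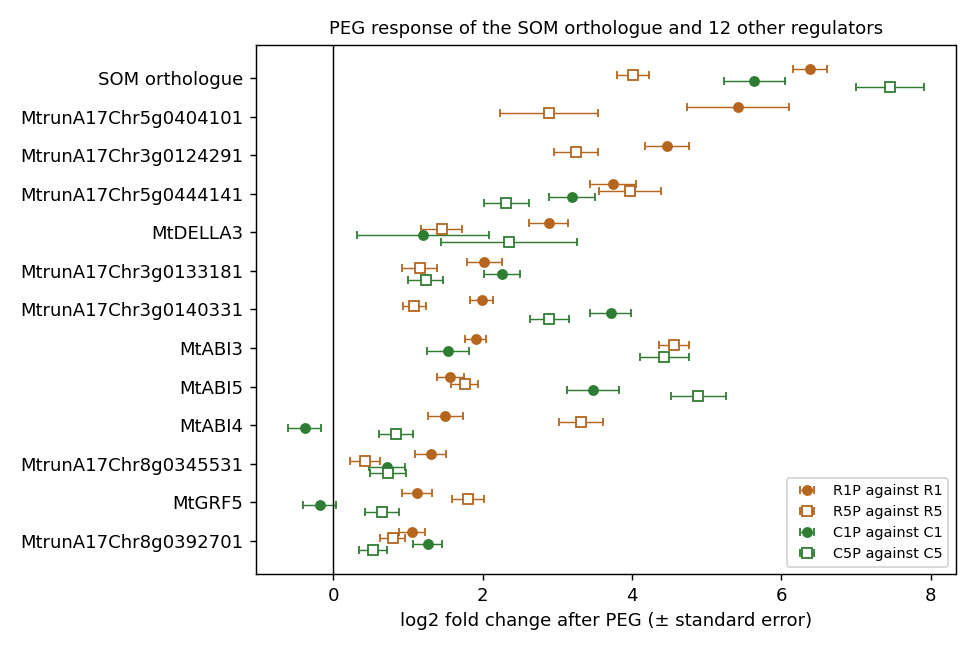
Log2 fold change after PEG (± standard error) of the SOM orthologue, MtABI3, MtABI4, MtABI5, MtDELLA3 and the other transcription factors that the study had picked with it, in radicles (brown) and cotyledons (green) at 1 mm (filled circles) and 5 mm (open squares). The SOM orthologue has the largest R1P value (6.38). Cotyledon values of MtrunA17Chr3g0124291 are left out because untreated cotyledons held at most 1 count, and those of MtrunA17Chr5g0404101 because it was not tested there.

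ABA and GA metabolism, on which SOM acts in Arabidopsis, was represented by few annotated genes, taken from the study's radicle lists. Among all genes tested in cotyledons, 13.8% rose and 14.9% fell in C1P, and 9.02% rose and 12.1% fell in C5P. Lists of 2 or 3 genes are too short to be told from these shares. ABA 8'-hydroxylases break ABA down, and 0 of the 2 listed genes were called in C1P or C5P by edgeR or DESeq2, and 0 had an unadjusted p under 0.05. MtrunA17Chr8g0369791 had log2 fold changes of 0.21 and 0.23 (adjusted p = 0.54 and 0.53, edgeR), and MtrunA17Chr1g0164371 had 0.00 and -0.37 (adjusted p = 1 and 0.36). The median of the 2 genes was 0.10 in C1P and -0.07 in C5P. Their radicle values, given without a test, were not flat. MtrunA17Chr1g0164371 had log2 fold changes of 3.21 (SE 0.32) in R1P and 3.31 (SE 0.33) in R5P. Those of MtrunA17Chr8g0369791 were -0.91 (SE 0.16) in R1P and 0.98 (SE 0.16) in R5P. GA 2-beta-dioxygenases inactivate GA, and of 3 listed genes 1 rose and 1 fell at both stages. MtrunA17Chr2g0285931 rose to 26.3 and 20.5 CPM in C1P, against 2.94 and 4.34 CPM in C1 (log2 fold change 2.65, adjusted p = 0.00041, edgeR), and to 22.6 and 21.2 CPM in C5P, against 7.25 and 5.48 CPM in C5 (1.73, adjusted p = 0.0028). MtrunA17Chr1g0194321 fell by 1.43 in C1P and by 1.57 in C5P on the log2 scale (adjusted p = 0.0036 and 0.0025, edgeR). MtrunA17Chr8g0358941 had -0.44 and 0.09 and was not called. The 3 had medians of -0.44 in C1P and 0.09 in C5P. The ABA and GA biosynthesis genes were not analysed here.

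The C3H family could be followed only in part. The 14 other C3H genes with an annotation came from the study's lists of genes that differed between R1P and R1, 9 of them higher and 5 lower there, so they were chosen for a PEG response in radicles. Of these, 13 had enough counts in cotyledons to be tested. In C1P 6 of the 13 rose and 3 fell, and in C5P 5 rose and 0 fell (also 0 at an unadjusted edgeR p under 0.05 and 0 with DESeq2), with medians of 0.87 and 0.43 beside -0.08 and -0.05 for all genes. Of all genes tested, 13.8% rose and 14.9% fell in C1P, and 9.02% rose and 12.1% fell in C5P. The response of the SOM orthologue (5.64 and 7.45) had its nearest match among the 13 in MtrunA17Chr2g0324781 (5.50 and 8.90, adjusted p = 5.6e-05 and 2e-05, edgeR). MtrunA17Chr6g0487481 followed at 3.76 and 4.61 (adjusted p = 0.00014 and 7.3e-05). MtrunA17Chr3g0118461 was called at 1 mm (1.75, adjusted p = 0.0024, edgeR) and not at 5 mm (0.75, adjusted p = 0.072). MtrunA17Chr4g0050631 rose by 1.68 in C1P and by 1.71 in C5P (adjusted p = 0.0013 in each, edgeR), less than the SOM orthologue at both stages. Those that fell in C1P were MtrunA17Chr2g0320801 (-2.21, adjusted p = 0.0019), MtrunA17Chr8g0348461 (-1.96, adjusted p = 0.0021) and MtrunA17Chr1g0159721 (-1.84, adjusted p = 0.033).

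The SOM orthologue is 1 of 10 transcription factors that the study listed as both higher and more accessible in R1P, so all 10 are higher in R1P by choice. In cotyledons 9 were tested, of which 6 rose in C1P and 5 in C5P, the SOM orthologue among them each time, and 0 fell by edgeR, by DESeq2 or at an unadjusted p under 0.05. Over all genes, 13.8% rose and 14.9% fell in C1P, and 9.02% rose and 12.1% fell in C5P. Their medians were 2.26 in C1P and 1.24 in C5P, the same with MtrunA17Chr3g0124291 set to its lower bound. That EIL family gene had 140 and 35 counts in C1P (175 in all) against 1 in C1, a ratio of 271 (95% counting interval 47.9 to 10740), and 71 counts in C5P against 0 in C5. Against a floor of 3 counts over the group it was 90.2-fold higher in C1P and 26.7-fold higher in C5P. The GATA factor MtrunA17Chr3g0140331 rose by 3.71 in C1P (adjusted p = 8.3e-05, edgeR) and by 2.89 in C5P (adjusted p = 0.00022). The C2H2 factor MtrunA17Chr5g0444141 rose by 3.19 and 2.32 (adjusted p = 0.00027 and 0.0012, edgeR), and the ZF-HD factor MtrunA17Chr3g0133181 by 2.26 and 1.24 (adjusted p = 0.00044 and 0.0066).

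The WD40-like MtrunA17Chr8g0392701 rose in C1P (1.27, adjusted p = 0.0023, edgeR), a call lost on library totals (0.69), and had 0.53 in C5P (adjusted p = 0.078). MtGRF5 (-0.19 and 0.65, adjusted p = 0.55 and 0.066, edgeR) and the AP2 factor MtrunA17Chr8g0345531 (0.72 and 0.73, adjusted p = 0.051 and 0.06) were not called. The MYB-like MtrunA17Chr5g0404101 was at 0 CPM in C1P and C5P and too scarce to be tested in cotyledons, against 3.60 CPM in R1P and 0.0781 in R1. Within these 10 factors, the SOM orthologue had the largest fitted log2 fold change in R1P (6.38) and R5P (4.02). The R5P value of MtrunA17Chr5g0444141 was close to it, at 3.97 (SE 0.41). In C1P (5.64) and C5P (7.45) the SOM orthologue was first only with MtrunA17Chr3g0124291 left out. That gene had fitted values of 7.61 and 8.14, which rest on at most 1 count in untreated cotyledons. In C1P its 90.2-fold rise against the floor was above the 51.0-fold of the SOM orthologue, though its counting interval began at 47.9. In C5P its 26.7-fold rise against the floor was below the 186-fold of the SOM orthologue.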

How the data were processed

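RNA was extracted from radicles and cotyledons separately, and 16 single-end libraries were sequenced on a BGISEQ-500. The authors quantified transcripts with Salmon 1.2 on the A17 release 5 transcriptome and deposited estimated counts per gene, which are not normalised. The row of the SOM orthologue was whole in all 16 libraries (within 5e-04), while 15.3% to 21.6% of values in a library were not. The authors' own comparisons (fold changes and p-values in their supplementary tables) were not used.

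Estimated counts were rounded and fitted with edgeR 4.0.16 (R 4.3.3; TMM factors, filterByExpr, quasi-likelihood test, Benjamini-Hochberg adjustment over all genes tested), with the 8 cotyledon libraries (23060 genes), the 8 radicle libraries (23793) and, between tissues, all 16 (25524) in separate models. A stage by PEG difference was a contrast of 4 group means. CPM used TMM factors over 16 libraries, and r used log2 CPM with a prior count of 2. A call needed an adjusted p under 0.05 and a log2 fold change over 1 in size. With 2 libraries a group, the smallest exact two-sided p is 0.333, so tests rest on the spread shared over genes. The replicates are called biological by the sources.

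The genes named were the SOM orthologue, the 10 of highest r, all members of the regulator and transcription factor lists, and in the other lists the 3 of highest mean CPM and up to 3 called members per direction. The lists came from annotations in the study's supplementary tables, since 0 identifiers matched the reference gene table; the gene, lists and tests were chosen with earlier results of these data known. The fit was tested on simulated data. Alternatives were RLE factors, library totals, no low-count filter, DESeq2 1.42.0, a replicate block, other model libraries and each replicate left out. Figures were drawn with matplotlib 3.10.9.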

Additional observations from a re-analysis of the deposited data

Results flagged for a closer look

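The difference of the SOM orthologue between cotyledons and radicles at 5 mm had opposite directions without and with PEG. It was -2.35 for C5 against R5 and 1.26 for C5P against R5P on the log2 scale, and in both cases every cotyledon library lay on the same side of every radicle library. The difference between these values was not tested. After PEG, the tissue difference also had opposite directions at the 2 stages, -0.70 for C1P against R1P and 1.26 for C5P against R5P, again with no overlap of libraries, and the difference was not tested. A level lower in R5P than in R1P was favoured by how the gene was chosen. Both replicates of C1P lay below both of R1P, but the value was -1.31 without C1P replicate 1 and -0.28 without C1P replicate 2.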

How the results depend on the processing

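Among the results for the SOM orthologue, 155 of 176 values under an alternative kept their direction and their side of the threshold or moved by less than the replicate spread. C5P against C1P turned to 0.10 without C1P replicate 1 (range -0.91 to 0.10). C5 against C1 ranged from -2.63 to -2.04 with a replicate left out, the call being lost in 3 of 4 cases (adjusted p up to 0.071). Stage by PEG in cotyledons passed the threshold with no filter (1.86, adjusted p = 0.031), DESeq2 (1.81), all 16 libraries (1.85) and without C1P replicate 1 (2.41), over a range of 1.40 to 2.41 with a replicate left out. On library totals R1P against R1 was 6.01, R5P against R5 3.67 and C1 against R1 0.11. With a replicate left out, R1P against R1 was 6.33 to 6.54, R5 against R1 -0.32 to 0.23, R5P against R1P -2.61 to -2.23, stage by PEG in radicles -2.61 to -2.07, C1P against R1P and tissue by PEG at 1 mm each -1.31 to -0.28, C5P against R5P 1.10 to 1.44 and tissue by PEG at 5 mm 3.32 to 3.94. The cause was not tested. Of the 10 most similar genes, 5 remained with Spearman's rho and 2 with cotyledon libraries only. Pairing of samples by replicate number was not assumed. Deviations of same-numbered libraries correlated at 0.0389 to 0.177 in radicles and -0.335 to 0.162 in cotyledons, which does not settle it. With the replicate block, C1P against C1 was 5.61, C5P against C5 7.44, C5 against C1 -2.30 (adjusted p = 0.027, edgeR) and stage by PEG in cotyledons 1.83 (adjusted p = 0.21), and no call of the SOM orthologue changed, while 8 rather than 9 of the C3H genes were called in C1P. Counts of called genes were 2871 with DESeq2 against 1433 for C5P against C1P, 1663 against 282 for stage by PEG in cotyledons, and with the adjusted p alone 7865 against 4184 for R5 against R1 and 7976 against 4560 for R5P against R1P. Of the 4 regulators, 1 was called in C1P on library totals against 2. Depth limits the SOM orthologue only in C5, with 21 and 37 counts. Where a replicate is left out, the lone library is assumed to vary like the other groups.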
